A study of Mus musculus with 8 samples.

Results

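Spink1 (ENSMUSG00000024503), the gene of a secreted trypsin inhibitor, was examined in the kidneys of adult and aged mice. It is 1 of 30153 gene rows in a deposited table of TPM (a measure of abundance that is corrected for transcript length and sums to about the same total in each library). It was chosen by these TPM, because its adult and aged libraries did not overlap at a high level, so the age difference itself is given as a description, without a test. All 8 animals were C57/BL6 mice that carried Hap-II, a haplotype of the human angiotensin receptor type 1 gene, and all received a western diet. The 4 adult and the 4 aged animals each gave 1 kidney library, and the labels give no ages in weeks or months and no sex. Both groups carried the transgene and ate the same diet, so neither factor could be compared here, and the promoter that drives the human gene is not given in the sources used here. Extraction used a Qiagen kit, and library preparation kept the strand and started from pulled-down polyadenylated RNA.

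Spink1 encodes a small protein with a single Kazal domain, a fold that occupies the active site of trypsin-like serine proteases. It is best known from the exocrine pancreas, where acinar cells package it with trypsinogen and it blocks trypsin that becomes active too early. In mice the gene was long called Spink3, and its product is also known from the seminal vesicle as an androgen-dependent protein. The same protein has been described as a ligand of the EGF receptor, as an acute-phase protein that responds to interleukin 6, and as a brake on autophagy in acinar cells. The lists of genes below follow these roles.

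In GENCODE release M21 on the mouse build GRCm38, Spink1 lies on chromosome 18 between positions 43728082 and 43737557, on the minus strand. It has 1 annotated transcript of 4 exons and 729 bases, of which 240 code for 80 amino acids and 489 are untranslated.

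Spink1 was an abundant kidney transcript in every library and stood lower in all 4 aged ones. The adult libraries held 1767, 1988, 1369 and 1527 TPM. The aged libraries held 1024, 965, 778 and 809 TPM. The lowest adult value exceeded the highest aged value by 345 TPM, a ratio of 1.34. Mean levels were 1663 ± 272 TPM in the adult and 894 ± 119 TPM in the aged kidneys (SD, n = 4 each), so the aged mean was 46.2% lower, or 1.86-fold. The log2 difference, aged minus adult, was -0.89 on the log2(TPM + 1) scale. Its SE was 0.21 in the limma fit across all genes described below, and 0.15 from the spread of these 8 libraries alone. By level Spink1 ranked between 44 and 78 among all genes in the adult libraries and between 87 and 103 in the aged ones. These are bulk kidney libraries, in which fewer cells that make Spink1 and less Spink1 RNA per cell cannot be told apart.

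**Figure D1:**
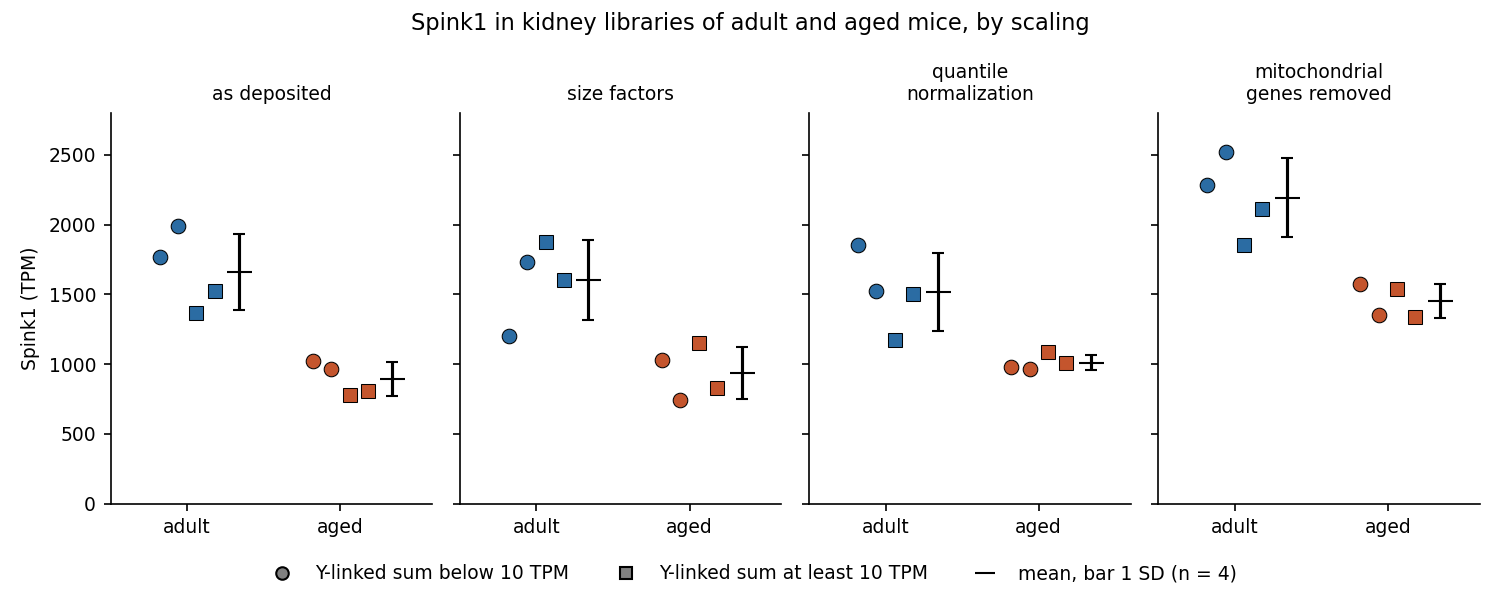
Spink1 TPM in each library (y axis) of adult and aged mice (x axis), as deposited and after 3 rescalings, with the group mean and 1 SD beside the points; squares mark the 4 libraries with a summed level of Y-linked transcripts of at least 10 TPM. The aged libraries lie below the adult ones in each panel, and the gap is narrowest after size factors, where the nearest adult and aged libraries were 1203 and 1150 TPM.

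The libraries differed in other ways that moved with age or within it. Column totals were between 924798 and 950974 TPM, and between 10663 and 12293 genes reached 1 TPM. Transcripts of the 13 mitochondrial genes that code for proteins made up 22.8% ± 3.02 of the nominal TPM total in adult animals and 35.9% ± 8.48 in aged animals (SD, n = 4 each), with all aged libraries above all adult ones. TPM share a fixed total, so a larger mitochondrial share leaves a smaller share to other genes. The median log2 difference of all 11796 genes tested was -0.11 as deposited and 0.15 with mitochondrial genes removed. The part of the mitochondrial share in the deposited median was not tested. Within each age, adult replicates 1 and 2 and aged replicates 1 and 2 held 0.485 to 2.30 TPM of 4 summed Y-linked transcripts (Ddx3y, Kdm5d, Eif2s3y and Uty), and the other libraries 34.7 to 50.6 TPM. The classes above and below 10 TPM of this sum thus held 2 adult and 2 aged libraries each.

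Rescaling made the Spink1 difference smaller and left the groups apart. With median-of-ratios size factors, which bring the median difference of all genes to -0.01, adult libraries held 1203, 1734, 1873 and 1600 and aged libraries 1033, 742, 1150 and 831. The means were then 1603 ± 289 and 939 ± 186 (SD, n = 4 each), a log2 difference of -0.77. With quantile normalization the log2 difference was -0.57, and the nearest libraries differed by a ratio of 1.08. With mitochondrially encoded genes removed and TPM rescaled, Spink1 averaged 2193 ± 281 in adult and 1452 ± 123 in the aged animals (SD, n = 4 each), a log2 difference of -0.59, while the median of all genes was 0.15. Every aged library lay below every adult library on each of these 4 scales, with between 33.3% and 46.2% lower aged means. As deposited this order was the rule of the choice, and the rescalings start from the same values. It is given as a description.

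**Figure D2:**
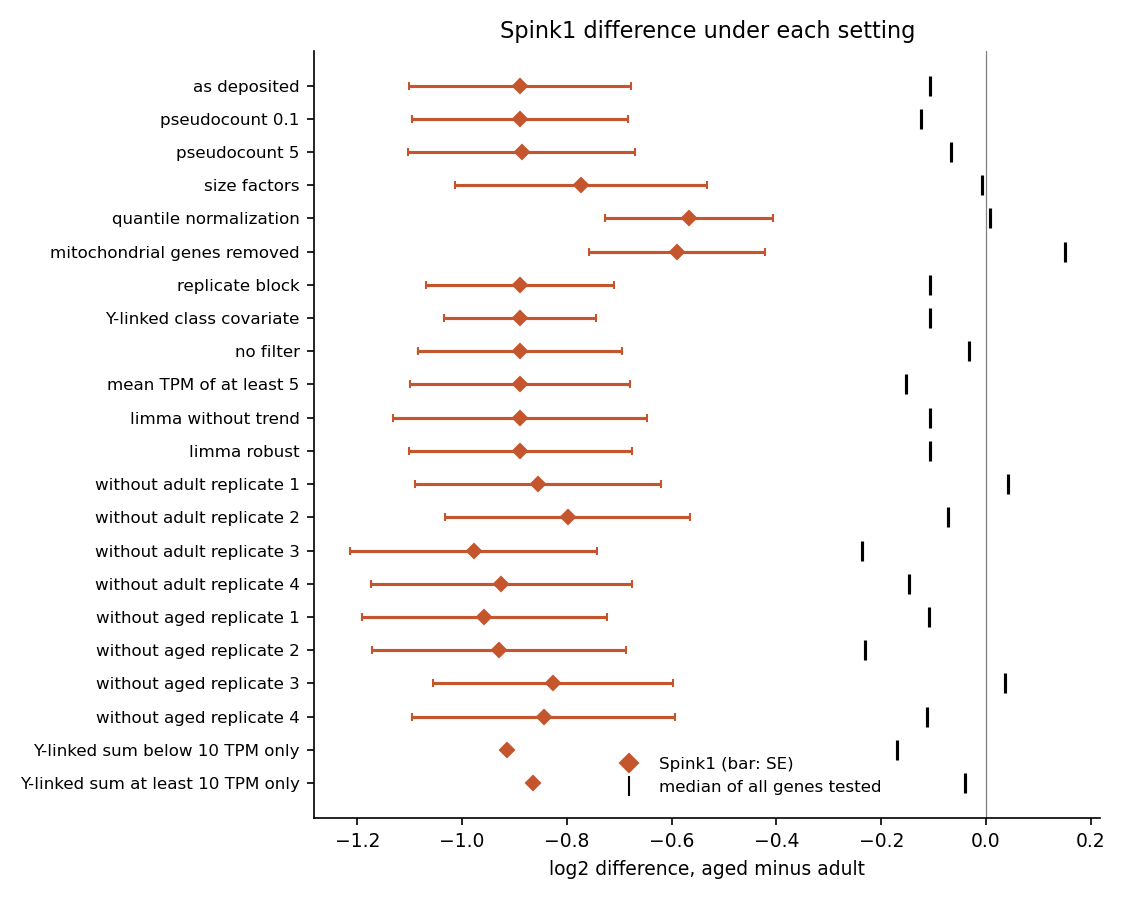
The log2 difference of Spink1, aged minus adult (x axis), under each setting (y axis), with its SE, beside the median difference of all genes tested (black bars). The value lies between -0.98 and -0.57 in all settings, and single-class values carry no SE.

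Because the choice of Spink1 required every aged library to lie below every adult one, it was bound to be lower within each Y-linked class. The sizes are given as a description. In the 4 libraries with a low Y-linked sum, Spink1 had means of 1877 TPM (2 adult animals) and 995 TPM (2 aged animals), 47.0% lower. In the 4 libraries with a high sum it averaged 1448 and 794 TPM, 45.2% lower. The difference between these 2 age differences was 0.05 on the log2 scale (limma's interaction term, from 2 libraries a cell), and no test is read from it. With the Y-linked class as a covariate the age difference was again -0.89 (SE 0.15), as it had to be with classes balanced over the ages.

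Spink1 was also lower in the libraries with Y-linked transcripts in the values as deposited. Both such adult libraries lay below both other adult libraries, by 22.9% in the mean, and both such aged libraries lay below both other aged ones, by 20.2%. That order was common, since 3629 of 11796 genes (30.8%) showed it. The log2 difference between classes was -0.35 for Spink1 (SE 0.15, limma adjusted p = 0.113) against a median of -0.46 over all genes. With size factors it turned to 0.21 (SE 0.22, adjusted p = 0.652), so no direction is given. The classes were not tested within each age.

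Among high-level genes whose groups did not overlap, Spink1 had one of the larger age differences. Of 825 genes with a mean of at least 100 TPM, 67 were lower in every aged library than in every adult one (8.12%), and 3 were higher (mt-Atp6, mt-Atp8 and mt-Nd4). Over all genes tested, the lower pattern held for 249 of 11796 (2.11%). Among these 70 genes Spink1 had rank 5 by absolute log2 difference and rank 4 by the ratio between nearest libraries. These ranks use the TPM by which Spink1 was chosen and are a description. Larger differences were those of the predicted gene Gm9843 (log2 -5.28, SE 1.20), Nat8f1, an acetyltransferase family gene (-1.44, SE 0.34), the predicted gene Gm10221 (-1.34, SE 0.35) and mt-Atp8 (1.04, SE 0.22). Cyba, a subunit of NADPH oxidase, averaged 718 ± 39.2 and 421 ± 74.5 TPM (SD, n = 4 each). Among the 825 genes the one just inside non-overlap was Mrpl28, with a lowest adult value of 109.79 and a highest aged value of 109.75 TPM. Just outside it was Fis1, with 215 and 216 TPM.

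**Figure D3:**
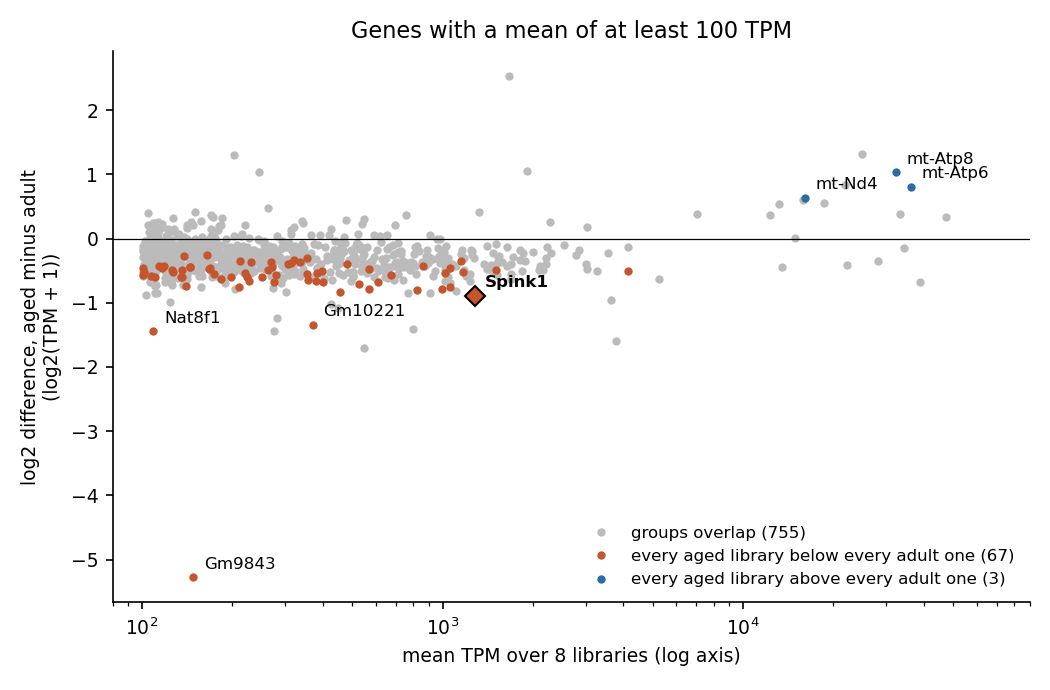
Mean TPM over 8 libraries (x axis, log scale) against the log2 difference, aged minus adult (y axis), for the 825 genes with a mean of at least 100 TPM; the colours mark genes whose groups do not overlap. Spink1 (diamond) lies at -0.89, and of the 67 lower genes Gm9843, Nat8f1 and Gm10221 lie below it.

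In the fit across all genes, limma on log2(TPM + 1) with Benjamini-Hochberg adjustment, 0 of 11796 genes (0%) passed an adjusted p of 0.05, and 400 had an unadjusted p under 0.05, of which 325 were lower and 75 higher. No list member below passed in either direction, so members are given by level and by the count of positive and negative differences, beside 7669 negative differences among all 11796 genes (65.0%). Per the series' design text the replicates are separate animals.

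The rest of the SPINK family was at low levels. Of 12 other family genes, 5 were listed at 0 in every library and 2 had a mean of at least 1 TPM, Spink8 and Spink4. Spink8 held 10.2, 19.2, 5.30 and 6.86 TPM in the adult and 10.3, 14.6, 9.70 and 3.64 TPM in the aged kidneys, with groups that overlapped. Spink4, a family member known from goblet cells of the gut, averaged 1.67 ± 1.19 and 4.59 ± 2.96 TPM (SD, n = 4 each; log2 difference 1.03, SE 0.44, limma unadjusted p = 0.0366, adjusted 1.00), the opposite sign to Spink1. All other SPINK genes together with these reached at most 22.6 TPM in a library. Of the 10 family genes that lie on chromosome 18, Spink1 was the only one with a mean of at least 1 TPM.

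The nearest annotated genes were listed at or near 0 in most libraries. Jakmip2, 40.3 kb away, was listed at 0 in all libraries, and Gm94, 39.6 kb away on the other side, reached at most 0.162 TPM. Scgb3a2, a secretoglobin known from airway epithelium and 26.7 kb away, was listed at 0 in all 4 adult libraries. It held 29.4 TPM in aged replicate 1, 0.434 TPM in aged replicate 2 and 0 in the other aged libraries. The nearest gene with more than 10 TPM in each library was Eif3j2, 250 kb away, with means of 17.4 and 12.5 TPM (log2 -0.45, SE 0.24, adjusted p = 1.00).

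Spink1 was the most abundant of the 66 genes of the inhibitor family and Kazal-domain lists in 7 libraries and the second in aged replicate 2. It made up 21.9% to 45.01% of their summed TPM. TPM are scaled by transcript length, so levels can be set side by side between genes. Among other genes with a Kazal domain, Igfbp7, a secreted binding protein of insulin-like growth factors, came closest. Igfbp7 held 1528, 1175, 524 and 884 TPM in the adult and 796, 1369, 459 and 701 TPM in the aged kidneys. Its groups overlapped widely, and aged replicate 2 was where it exceeded Spink1. Htra1, a secreted serine protease with a Kazal-like module, averaged 81.6 and 84.5 TPM, and the matrix protein Sparc 50.0 and 47.1 TPM. Of 9 such genes tested besides Spink1, 7 had a negative difference, with a median of -0.12 as deposited and 0.06 with size factors.

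The other inhibitors came from the Kunitz, whey acidic protein and serpin families. Wfdc15b, of the whey acidic protein family, averaged 751 ± 394 and 545 ± 326 TPM, and Wfdc2 averaged 230 ± 167 and 203 ± 180 TPM (SD, n = 4 each). Both spread widely within an age, and both were lower in the libraries with Y-linked transcripts as deposited (limma adjusted p = 0.00695 and 0.000101). With size factors Wfdc15b no longer passed (adjusted p = 0.251). Spint2 and Spint1, membrane-bound Kunitz inhibitors of epithelial proteases, averaged 156 and 125 TPM and 37.2 and 27.2 TPM. The 10 Kunitz and whey acidic protein genes tested split into 5 negative and 5 positive differences, with a median of -0.07 as deposited and 0.03 with size factors. Of 16 serpins, suicide-substrate inhibitors, 12 had a negative difference, with a median of -0.14. The serpin median stayed negative after size factors (-0.08) and quantile normalization (-0.06). It was 0.06 without mitochondrial genes, where the median of all genes was 0.15. Serpine2, protease nexin 1, was the one inhibitor tested besides Spink1 whose groups did not overlap, a pattern that 41 of 11796 genes showed in the higher direction (0.348%). It held 7.06, 7.67, 3.18 and 6.10 TPM in the adult and 13.2, 13.4, 9.39 and 11.7 TPM in the aged kidneys (log2 0.93, SE 0.29, unadjusted p = 0.00839, adjusted 1.00), and was higher in the aged libraries, where Spink1 was lower.

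**Figure D4:**
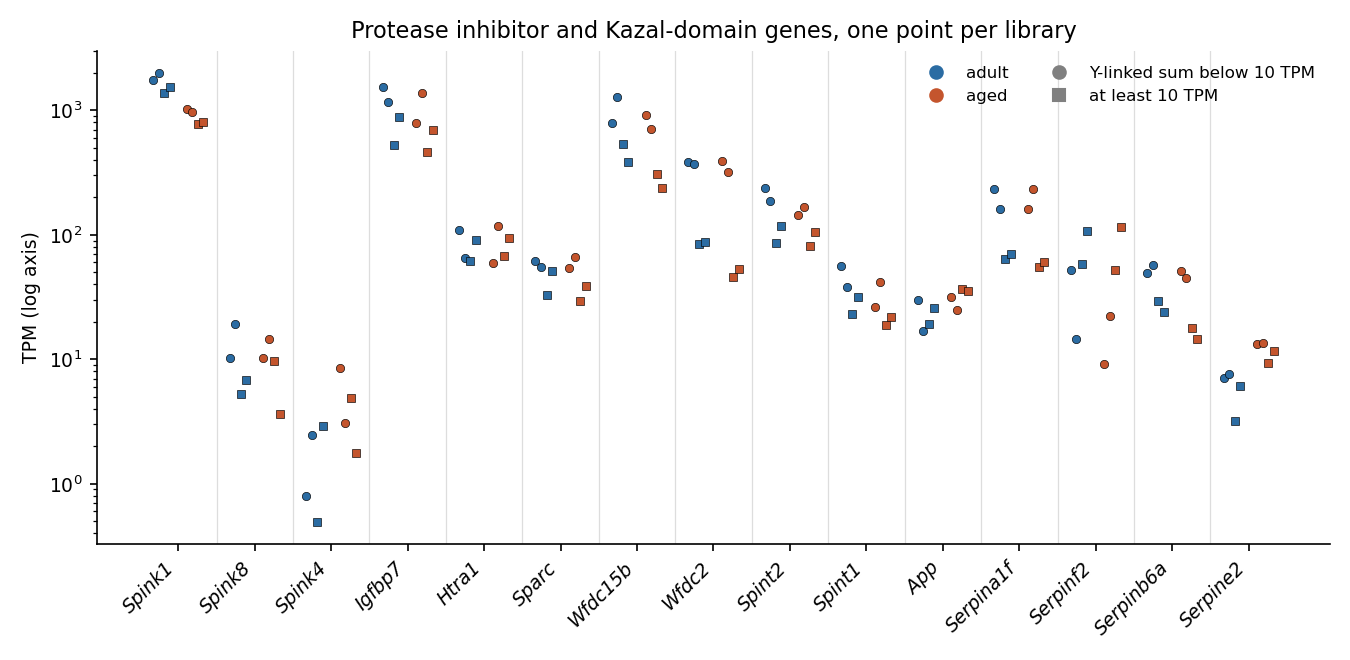
TPM (y axis, log scale) of Spink1 and 14 other protease inhibitor or Kazal-domain genes (x axis), 1 point per library, coloured by age and shaped by the Y-linked sum. Spink1 tops the other genes in all but 1 library, and Serpine2 is the other gene shown whose age groups do not overlap.

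The proteases that Spink1 is named for were not detected or close to it. Of 18 trypsins and related digestive serine proteases, 13 were listed at 0 in every library, among them the trypsinogens Prss1, Prss2 and Prss3 and the enteropeptidase gene Tmprss15 that activates them. Only Ctrc, a chymotrypsin, had a mean of at least 1 TPM, with 0.302 to 2.21 TPM in the adult and 0.510 to 4.09 TPM in the aged kidneys. The whole list summed to between 0.71 and 5.20 TPM a library, against 778 TPM or more of Spink1. Pancreas acinar markers were likewise low. Of 20, 13 were listed at 0 in every library, and the list summed to 2.85 to 8.63 TPM in the adult and 1.07 to 9.93 TPM in the aged kidneys, most of it Sycn, with Cpa1, Pnlip and Ctrb1 at 0. Of 13 male accessory gland markers 10 were at 0, and their sum reached at most 0.326 TPM.

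Some epithelial serine proteases were present at high levels, while 8 of the 20 listed had a mean below 1 TPM. Klk1, tissue kallikrein, averaged 1354 ± 902 and 1107 ± 1197 TPM (SD, n = 4 each), a level near that of Spink1 with a wider spread within each age. Klk1 belongs to a cluster of near-identical genes, so its value is uncertain. Plau, urokinase, averaged 224 and 153 TPM, Hpn, hepsin, 152 and 120 TPM, and Prss8, prostasin, 112 and 79.6 TPM. Of 12 such genes tested, 10 had a negative difference, with a median of -0.26, and 0 passed. This median was -0.14 after size factors and -0.11 after quantile normalization. It was 0.02 without mitochondrial genes, where the median of all genes was 0.15. Among substrates and receptors of trypsin, Mep1a, a meprin subunit of the brush border, averaged 243 and 244 TPM. F2rl1, the protease-activated receptor that trypsin cleaves, averaged 6.55 and 6.66 TPM. Of the 5 genes of this list that were tested, 3 had a positive and 2 a negative difference, with a median of 0.01.

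Genes of the EGF receptor system spread widely within each age. Egf itself held 195, 58.7, 18.0 and 34.3 TPM in the adult and 41.0, 161, 14.6 and 32.1 TPM in the aged kidneys. Egfr, the receptor that Spink1 has been described to bind and which was named here for that role after its values were seen, averaged 4.97 and 6.36 TPM (log2 0.26, SE 0.42). Erbb3 averaged 10.5 and 7.93 TPM and Hbegf, a ligand, 4.51 and 7.66 TPM. The 9 genes tested had a median difference of -0.12, with 6 negative. Their median was -0.05 after size factors and -0.04 after quantile normalization. It was 0.0049 without mitochondrial genes, against 0.15 for all genes.

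The interleukin 6 and acute-phase list, which holds inducers and companions of Spink1 in its acute-phase role, had 7 negative and 9 positive differences among 16 genes tested, with a median of 0.04. Il6 and Saa1 were listed at 0 in every library. Il11ra1, a receptor subunit, averaged 74.2 and 55.7 TPM, Jak1, a kinase of the pathway, 16.7 and 15.9 TPM, and Cp, ceruloplasmin, 17.4 and 16.4 TPM. Hp, haptoglobin, reached 4.45 TPM in the adult and 6.41 TPM in the aged kidneys.

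Most autophagy and cathepsin genes had a negative difference as deposited. Of 18 tested, 17 had a negative difference, with a median of -0.18 as deposited. The median was -0.06 after size factors, 0.03 after quantile normalization and 0.11 without mitochondrial genes, so the sign turned with the scaling. Gabarapl1 averaged 563 ± 277 and 407 ± 231 TPM, and Map1lc3b, which coats autophagosomes, 170 ± 28.7 and 123 ± 29.5 TPM (SD, n = 4 each; log2 -0.48, SE 0.24, unadjusted p = 0.0706). Atg5, a conjugation factor, averaged 25.8 and 21.2 TPM.

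Androgen-responsive kidney genes differed between the Y-linked classes. Of 13 such genes, 11 were higher in the libraries with Y-linked transcripts (limma adjusted p under 0.05), both as deposited and with size factors, where 133 of 11796 genes were called higher (1.13%) and 1331 lower (11.3%) as deposited, and 335 and 307 with size factors. Kap, the kidney androgen-regulated protein, held 21203, 19148, 71490 and 68446 TPM in the adult and 11666, 8775, 57873 and 51715 TPM in the aged kidneys. It was at 51715 TPM or more in each library with Y-linked transcripts, the libraries in which Spink1 as deposited was the lower of its age. Timd2 and Cyp4b1 were likewise higher in each library with Y-linked transcripts than in any of the others. All 6 female-biased genes, Prlr and Cyp4a14 among them, were lower in the libraries with Y-linked transcripts as deposited, and 5 with size factors. For age, the 13 androgen-responsive genes had a median difference of 0.09 and the 6 female-biased genes of -0.57, with 0 called.

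The genes with the pattern most like Spink1 were ranked by Pearson's r on log2(TPM + 1) over the same 8 libraries, among 5075 genes with a mean of at least 10 TPM. The r values describe these libraries, which share the age difference and the fixed TPM total, and carry no test. The highest were Prdx1, a peroxide-reducing enzyme (r = 0.97, Spearman's rho = 0.95), Cyc1, cytochrome c1 of respiratory complex III (r = 0.97, rho = 0.98), Zfand2b (0.97), Lamtor1, a lysosomal scaffold protein (0.97), Rilpl2 (0.97) and Smdt1, a subunit of the mitochondrial calcium uniporter (0.96). Prdx1 held 1087, 1234, 999.95 and 863 TPM in the adult and 634, 678, 532 and 559 TPM in the aged kidneys. The lowest were mt-Atp6, mt-Atp8 and mt-Nd4, with r of -0.96, -0.96 and -0.93. With the libraries farthest from the median of Spink1 left out, adult replicate 2 and aged replicate 3, r stayed between 0.94 and 0.96 for the 6 alike genes and between -0.95 and -0.87 for the 3 mitochondrial ones. After quantile normalization 0 of the 6 remained among the 6 most alike.

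Within ages the likeness pointed to other genes. On deviations from the age group means the highest r were those of Cd24a, a surface glycoprotein (1.00, rho = 1.00), Ccnq, a cyclin (0.99), Csrp1 (0.99), Mvb12a, a sorting factor of endosomes (0.99), Avpr2, the vasopressin receptor of the collecting duct (0.98), and Aurkaip1, a mitochondrial ribosomal protein (0.98). Cd24a held 140, 198, 59.3 and 85.2 TPM in the adult and 172, 158, 74.7 and 76.1 TPM in the aged kidneys, so it followed Spink1 within each age while its age means were equal, at 121 and 120.3 TPM. The lowest were Lipo3 (-0.98), Tmigd1 (-0.97) and Chpt1 (-0.96). Since Spink1 as deposited was lower in the libraries with Y-linked transcripts of each age, genes ranked this way also order by that class, and no test of it is given. When deviations were taken from the mean of each age and class, 2 of the 6 remained among the 6 most alike.

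**Figure D5:**
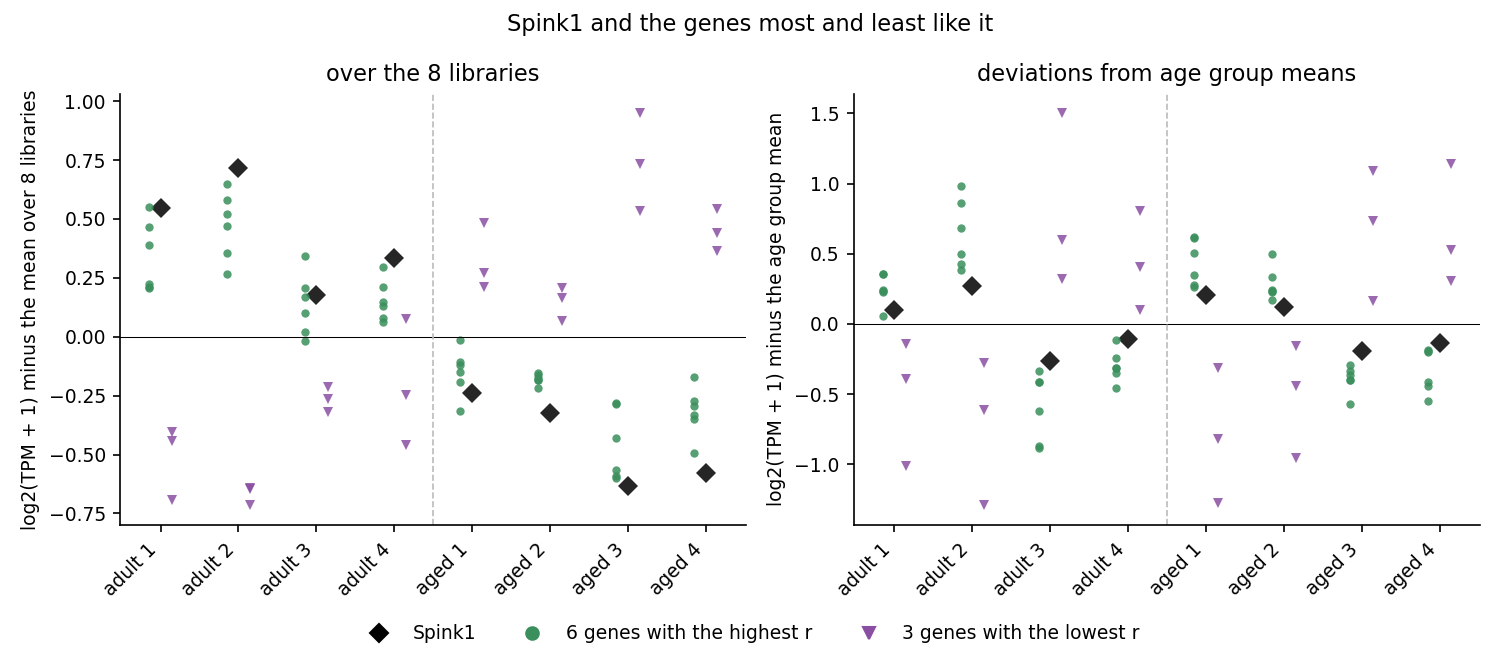
log2(TPM + 1) of Spink1 (diamonds), the 6 genes with the highest r and the 3 with the lowest r in each library (x axis), centred on the mean over 8 libraries (left) or on the age group mean (right). On the left the alike genes stand above 0 in nearly all adult libraries and below 0 in the aged ones with Spink1, and the mitochondrial genes stand on the opposite side in nearly all.

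The tissue label was checked against kidney cell type markers, whose part in the Spink1 difference was not tested. Markers of early proximal tubule segments summed to 688 to 2706 TPM in the adult and 616 to 2262 TPM in the aged kidneys, and all 10 were tested, with 9 negative and a median of -0.15. Markers of the late segment summed to 212 to 674 and 182 to 937 TPM, with a median of 0.10 over 8 genes. By Y-linked class the late-segment sum was 603 to 937 TPM in libraries with Y-linked transcripts and 182 to 399 TPM in the others. As deposited, 4 members were called higher and 2 lower with Y-linked transcripts, beside 1.13% and 11.3% of all genes. Slc7a13 held 171 to 292 TPM with them and 0.362 to 1.34 TPM in the others. Acsm3 is also in the androgen-responsive list and Slc22a7 in the female-biased one. Whether the classes differ in the amount of this segment was not tested. The thick ascending limb list summed to 388 to 2056 and 264 to 1862 TPM, with 6 of 6 negative and a median of -0.34. Distal convoluted tubule, principal cell and intercalated cell lists had medians of -0.19, -0.17 and -0.20. Podocyte and endothelial lists leaned the other way, with 6 of 6 and 7 of 7 positive and medians of 0.23 and 0.22. Macrophage markers summed to 129 to 235 and 65.6 to 320 TPM, and tubular injury markers to 282 to 2203 and 234 to 2451 TPM, with medians of -0.14 and -0.11. Spp1 made up most of the injury sum (165 to 2143 TPM), and 3 of the 13 injury markers averaged below 1 TPM. Urothelial markers summed to 16.5 to 53.9 and 13.2 to 31.0 TPM, with 3 of 3 tested negative and a median of -0.72. One of them, Upk1a, had groups that did not overlap (1.18 to 3.08 TPM in adult and 0.362 to 0.488 TPM in aged libraries), and was named after its values were seen. That lower pattern held for 249 of 11796 genes tested (2.11%). Upk1a averaged 1.09 TPM, near the mean of 1 TPM needed for a test. Krt7 and Upk3a, also tested, had groups that overlapped. Adipocyte markers summed to 108 to 255 and 98.7 to 235 TPM, with 3 of 3 tested negative and a median of -0.98. Most of that sum was Fabp4 (98.5 to 243 TPM, log2 -0.02), and Adipoq, Plin1 and Lep averaged below 1 TPM. The median was the value of Cfd, which averaged 1.68 TPM. In each of these lists the ranges of the summed TPM overlapped between adult and aged kidneys, and 0 members passed the test for age. With size factors, quantile normalization or mitochondrial genes removed, the medians kept their sign for the thick ascending limb, late segment, podocyte, endothelial, urothelial and adipocyte lists. At least 1 of these scalings turned the sign for each of the other lists of this paragraph.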

How the data were processed

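The deposited table holds TPM for 30153 mouse genes in 8 kidney libraries, 4 adult and 4 aged. Per the submitters' processing notes, kallisto, DESeq2 and the build GRCm38 were used. Which of them made the TPM, their versions and the annotation were not stated. TPM keep no read depth, so the depth is unknown and no counting interval is given. Symbols were matched for 29732 rows, and rows that shared a symbol were summed. Genes with a mean of at least 1 TPM were fitted with limma 3.58.1 (intensity trend) in R 4.3.3 on log2(TPM + 1), which understates changes of low genes. Benjamini-Hochberg adjusted p values were read at 0.05. Positions came from GENCODE M21 (GRCm38). Other scalings, pseudocounts of 0.1 and 5, filters, fits with the replicate number or Y-linked class, and each library left out were tried. From each inhibitor, protease, receptor and response list the 3 most abundant members and the 3 with the smallest unadjusted p were eligible to be named, with the 6 most and 3 least alike genes by each measure. The members and lists were chosen with earlier results of these data known. No sequence is printed, and 1 gene of the lists is not reported here.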

Additional observations from a re-analysis of the deposited data

Results flagged for a closer look

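In 2 of 154 groups of 4 libraries, over 77 named genes, 1 library lay far from the other 3 by Dixon's criterion, which chance alone meets in about 5% of groups. Spink1 was not among them. Erbb3, a receptor of the EGF receptor family, was at 20.9 TPM in adult replicate 1, and the lowest adult library was at 6.35 TPM. Gm10123 was at 1655 TPM in adult replicate 2 against a lowest adult value of 1049 TPM.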

How the results depend on the processing

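The Spink1 age difference, -0.89 as deposited, was negative in all 17 alternative settings. Most of them could not turn the sign, because Spink1 was chosen for groups that did not overlap as deposited. That holds for the other pseudocounts, the replicate block, the Y-linked covariate, each library left out and each Y-linked class alone. The rescalings were not bound in this way, but they start from the TPM by which Spink1 was chosen. The negative difference after each is thus a description and no separate support. It was -0.57 with quantile normalization and -0.59 without mitochondrial genes, and with each library left out in turn it lay between -0.98 (without adult replicate 3) and -0.80 (without adult replicate 2). The replicate block gave -0.89 (SE 0.18) and 0 genes called, with 916 at an unadjusted p under 0.05. Replicate numbers were not taken as pairs, because deviations of same-numbered libraries correlated at 0.038, 0.181, 0.486 and 0.415, and adult replicate 1 correlated best with aged replicate 2 (0.572). The count of genes called was 0 as deposited and 0 to 2 with each library left out. It was 1 without adult replicate 3 (Apoo-ps, lower) and 2 without aged replicate 1 (Gm12396, lower, and Gm5931, higher), pseudogenes or predicted genes named after their values were seen. Unadjusted counts ranged from 209 to 998 over the alternatives. Negative differences made up 65.0% of all genes as deposited, 51.1% after size factors, 48.8% after quantile normalization and 30.2% without mitochondrial genes. Of the 6 most alike genes over 8 libraries, 0 remained with quantile normalization. Of the 6 by deviations 0 remained with quantile normalization and 2 with deviations from the mean of each age and Y-linked class. The cause of these changes was not tested. Neither depth nor its effect on low genes could be read from TPM.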
